A study of Mus musculus with 64 samples.

Results

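The nuclear-encoded genes of the mitochondrial respiratory chain were followed in mouse embryonic stem cells from which single subunits of RNA polymerase II (Pol II) can be degraded. Members were the protein-coding rows of the count table whose symbol begins with Nduf, Uqcr, Atp5 or a cytochrome c oxidase stem (Cox4 to Cox8), or is Sdha, Sdhb, Sdhc, Sdhd, Cyc1 or Cycs. The rule found 96 of 55335 rows, or of 21899 protein-coding rows. Complex I had 36 members, complex II 4, complex III 9, complex IV 18 and complex V 17. The 12 other members were the complex I assembly factors Ndufaf1 to Ndufaf8, the carrier Cycs, and Cox7a2l, Ndufa4l2 and Atp5s. Another 13 rows with matching symbols were not protein-coding and were left out. Of the members, 93 passed the low-count filter at 12 h and 92 at 1 h. Cox8b, Cox8c and a second row named Atp5o (ENSMUSG00000116933) did not pass at 12 h.

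RNA sequencing covered 64 libraries, all from the mouse embryonic stem cell line V6.5. Cells labelled WT and 12 degron lines, RPB1 to RPB12, were sampled untreated and after 12 h in the auxin indole-3-acetic acid (IAA, 500 µM). Each of these 26 groups had 2 libraries. RPB1, RPB3 and RPB6 were also sampled at 0 h and 1 h of IAA, again with 2 libraries per group. Per the treatment protocol all cells, the untreated ones included, were first given doxycycline (2 µg/ml, 12 h; the series text gives another concentration), which switches on OsTir1, the plant receptor that directs a tagged protein to the proteasome when IAA is present. All cells were grown with CHIR99021 (3 µM) and PD0325901 (0.5 µM). The labels leave unsaid whether WT cells carried OsTir1, whether a line is 1 clone, and whether paired libraries are separate cultures. The p-values therefore describe spread between these libraries, which may be technical. Loss of each Pol II protein was not measured in these counts.

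The respiratory chain sits in the inner mitochondrial membrane. Complex I takes electrons from NADH and complex II takes them from succinate. Complex III passes them to cytochrome c, complex IV passes them on to oxygen, and complex V, the ATP synthase, uses the resulting proton gradient to make ATP. Most subunits are encoded in the nucleus and made by Pol II, whereas a core set in every complex except complex II is encoded in mitochondrial DNA and made by a separate, phage-like RNA polymerase. Nuclear respiratory factor NRF1 and the ETS-family factor GABP are known to drive many of the nuclear genes.

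Library depth ran from 3399838 to 7164928 counts at 12 h and from 8598431 to 13281252 at 0 h and 1 h. TMM scaling factors ranged from 0.539 to 1.17 at 12 h, against 0.963 to 1.03 at 0 h and 1 h. Mitochondrial mRNAs took 0.534% to 3.80% of counts at 12 h, and the lowest share was in 1 IAA library of RPB3, which stands apart from its partner. Pluripotency markers summed to 5124 to 7619 CPM in untreated libraries and 3524 to 10290 CPM after IAA 12 h, with no marker of the 12 under a median of 1 CPM. Fibroblast (feeder cell) markers summed to 5.39 to 22.7 CPM untreated and 5.51 to 30.7 CPM after IAA, and primitive endoderm markers to 3.84 to 23.4 and 1.69 to 23.3 CPM. Neuroectoderm markers summed to 47.7 to 105 CPM untreated and 51.8 to 151 CPM after IAA, and trophectoderm markers to 94.1 to 157 and 69.0 to 187 CPM. The part of these cell types in the results was not tested. In these bulk samples fewer cells of a type and less RNA per cell cannot be told apart.

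In untreated cells the members spanned a wide range of levels per kilobase of exon, the scale used here to compare genes. The catalytic ATP synthase subunits Atp5b and Atp5a1 led, with medians over 26 untreated libraries of 416 and 413 CPM per kb. Cox8a (344), Cox6a1 (308) and Cox4i1 (301), nuclear subunits of complex IV, followed. The ranges of Atp5b (375 to 455) and Atp5a1 (323 to 465) overlapped, so their order was not separated by the spread over libraries. Median levels by complex were 42 CPM per kb for complex I, 61.4 for II, 95.2 for III, 89.2 for IV and 74.2 for V, against 14.3 for the other members. The lowest levels above 0 were those of Cox6a2 (0.229 CPM per kb), Cox7b2 (0.725), Ndufb2 (1.23), Ndufa4l2 (1.32) and Cox4i2 (1.33). Cox6a2, Cox7b2 and Cox4i2 are known as tissue-restricted isoforms. Cox8b and Cox8c had medians of 0.

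After 12 h of IAA the response of the members differed between lines. Background shares are given in brackets as the percentage of all 17928 genes tested that rose, fell and changed either way. RPB2 had 83 of 93 members higher and 2 lower (27.9%, 34%, 61.9%). For RPB6 the counts were 82 and 2 (27.3%, 33.4%, 60.7%), and for RPB8 74 and 4 (31.5%, 30.2%, 61.7%). RPB5 with 50 higher and 10 lower (31%, 28.1%, 59.1%) and RPB1 with 40 higher and 13 lower (35.8%, 30.5%, 66.3%) stood nearer the background. RPB3 went the other way, with 4 higher and 37 lower (24.4% and 23.3%). RPB7 had 18 higher and 21 lower (20.2% and 21.1%), RPB9 4 and 11 (16.8% and 18%), RPB10 9 and 7 (18.2% and 21.2%) and RPB11 3 and 11 (10.6% and 13.1%), shares near or below those of all genes. None passed in WT (0.803% and 0.842%), RPB4 (1.13% and 0.948%) or RPB12 (2.14% and 2.65%). Calls are from edgeR's quasi-likelihood test at an adjusted p under 0.05, with p-values adjusted over all genes tested.

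**Figure D1:**
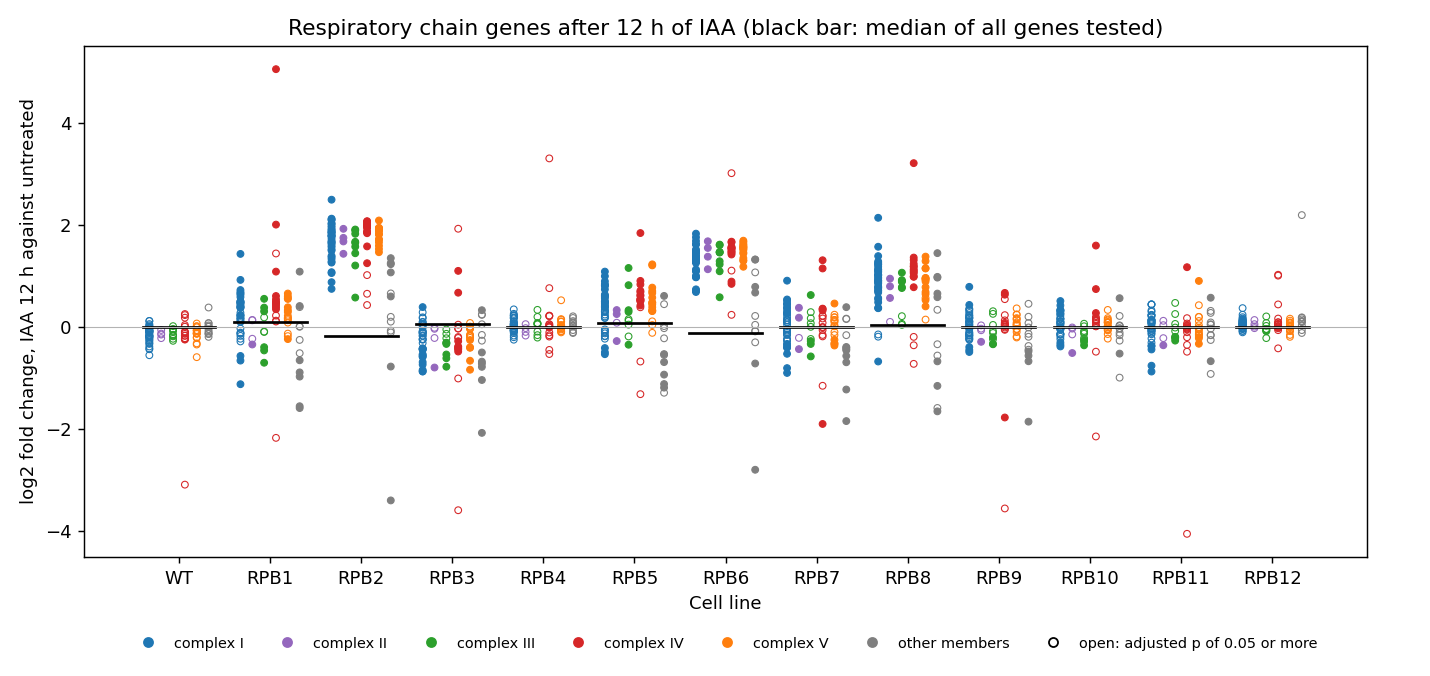
Log2 fold change of each tested member (y axis) in the 13 lines (x axis) after 12 h of IAA, with complexes in colour, filled points for called members, open points for the rest and a black bar for the median of all genes tested. Complexes I to V sit together well above the bar in RPB2 and RPB6 (member medians 1.72 and 1.35), and in RPB8 (0.90). Grey points, the other members, spread to both sides. Scaled to mitochondrial mRNAs the called members of these 3 lines turn to almost all lower, and the median of all genes in RPB2 falls further.

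Direction depends on what a member is measured against. The median log2 fold change of the members was 1.72 in RPB2 while that of all genes was -0.19, a gap of 1.90. The gap was 1.48 in RPB6, 0.86 in RPB8 and -0.27 in RPB3. A change of scaling moves all genes of a comparison by nearly the same amount, so it leaves this gap in place by construction and is no check of it. Mitochondrial mRNAs are not made by Pol II. Scaled to them, the median of all genes moved to -2.32 in RPB2, and 0 members rose and 32 fell in RPB2, 0 and 46 in RPB6, 1 and 48 in RPB8, 3 and 24 in RPB1 and 1 and 20 in RPB5. RPB3 then had 42 higher and 0 lower, and 1 of its 2 IAA libraries is the one with a mitochondrial share of 0.534%; without that library the counts on this scale were 1 higher and 38 lower. With total counts the split stayed at 75 higher and 7 lower in RPB2, while RPB6 had 72 and 7 and RPB8 had 71 and 7. The shares of all genes called on these other scales are not given here. These counts therefore do not set the members apart from other genes. All directions given from here on are relative to TMM scaling.

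Complex I, the largest, moved as a block in RPB2 and RPB6, where each of its 36 tested subunits rose, with medians of 1.75 and 1.31. Ndufa1, a small membrane-arm subunit, rose most in RPB2: the untreated libraries held 28.4 and 25.7 CPM and the IAA libraries 166 and 139 CPM, a log2 change of 2.50 ± 0.21 (SE, adjusted p = 1.7e-14 by edgeR). Ndufa10, an accessory subunit, went from 117 and 109 CPM to 385 and 419 CPM in RPB6, a log2 change of 1.83 ± 0.11. Neither pair of groups overlapped, which adds no support, since both members were picked by their change. The 7 conserved core subunits encoded in the nucleus, which carry the flavin and the iron-sulphur clusters, rose less than the 29 other subunits: their medians were 1.08 and 1.80 in RPB2 and 1.13 and 1.32 in RPB6. Ndufs7, a core subunit next to the quinone site, moved from 90.7 and 96.2 to 144 and 170 CPM in RPB2 (log2 change 0.75 ± 0.12, but -0.11 with total counts), and Ndufs3 from 47.8 and 55.9 to 80.5 and 86.8 CPM in RPB6 (0.69 ± 0.16). The lists of core and other subunits were drawn up with results known, and their difference was not tested.

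All 4 subunits of complex II rose in both lines, with medians of 1.71 in RPB2 and 1.47 in RPB6. Sdhc, a membrane anchor, held 128 and 146 CPM untreated and 529 and 514 CPM after IAA in RPB2 (log2 change 1.93 ± 0.10). Sdha, the flavoprotein that oxidises succinate, went from 305 and 335 to 1073 and 1081 CPM (1.75 ± 0.07). Sdhd, the other anchor, rose from 131 and 133 to 415 and 435 CPM in RPB6 (1.68 ± 0.10). The iron-sulphur subunit Sdhb rose less, by 1.44 ± 0.10 in RPB2 and 1.13 ± 0.11 in RPB6. Complex III rose in all 9 members of each line (medians 1.65 and 1.46). Uqcrb led in both, from 103 and 133 to 459 and 432 CPM in RPB2 and from 87.2 and 87.9 to 275 and 262 CPM in RPB6. Its Rieske iron-sulphur protein Uqcrfs1 trailed at 0.58 ± 0.11 in each line (-0.28 in RPB2 and -0.0428 in RPB6 with total counts), from 133 and 149 to 217 and 205 CPM in RPB2. Cyc1, cytochrome c1, rose by 1.58 ± 0.11 in RPB2.

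Complex IV had 13 of 16 tested members higher and none lower in each of RPB2 and RPB6 (medians 1.91 and 1.51), and the 3 that did not pass were the rare isoforms Cox4i2, Cox6a2 and Cox7b2. Cox6c, a small membrane subunit, held 166 and 154 CPM untreated and 672 and 677 CPM after IAA in RPB2 (log2 change 2.08 ± 0.10). Cox4i1, the first nuclear subunit to join the complex, went from 515 and 501 to 2014 and 2098 CPM in RPB2 and from 436 and 441 to 1276 and 1336 CPM in RPB6. Complex V rose in all 16 tested members (medians 1.86 and 1.54). Atp5e, a central-stalk subunit, changed most: 64.2 and 62.7 to 269 and 271 CPM in RPB2, and 53.9 and 49.3 to 168 and 166 CPM in RPB6. Atp5b, the catalytic beta subunit, climbed from 1788 and 1741 to 6658 and 6816 CPM in RPB2 (1.93 ± 0.07). Atp5f1, a peripheral stalk subunit, rose least of the complex in RPB6, from 348 and 346 to 775 and 801 CPM, and its groups did not overlap either.

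Summed over the subunits of complexes I to V, RPB2 held 13306 and 14589 CPM untreated and 46954 and 47969 CPM after IAA, and RPB6 12085 and 12145 against 31394 and 33074 CPM. As a plain share of counts, which TMM scaling does not touch, the subunits of RPB2 took 1.36% untreated and 2.56% after IAA, those of RPB6 1.24% and 2.14%, and those of RPB8 1.21% and 1.92%. These sums carry no test. The log2 changes by complex in RPB2 lay between 1.59 for complex III and 1.98 for complex IV.

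**Figure D2:**
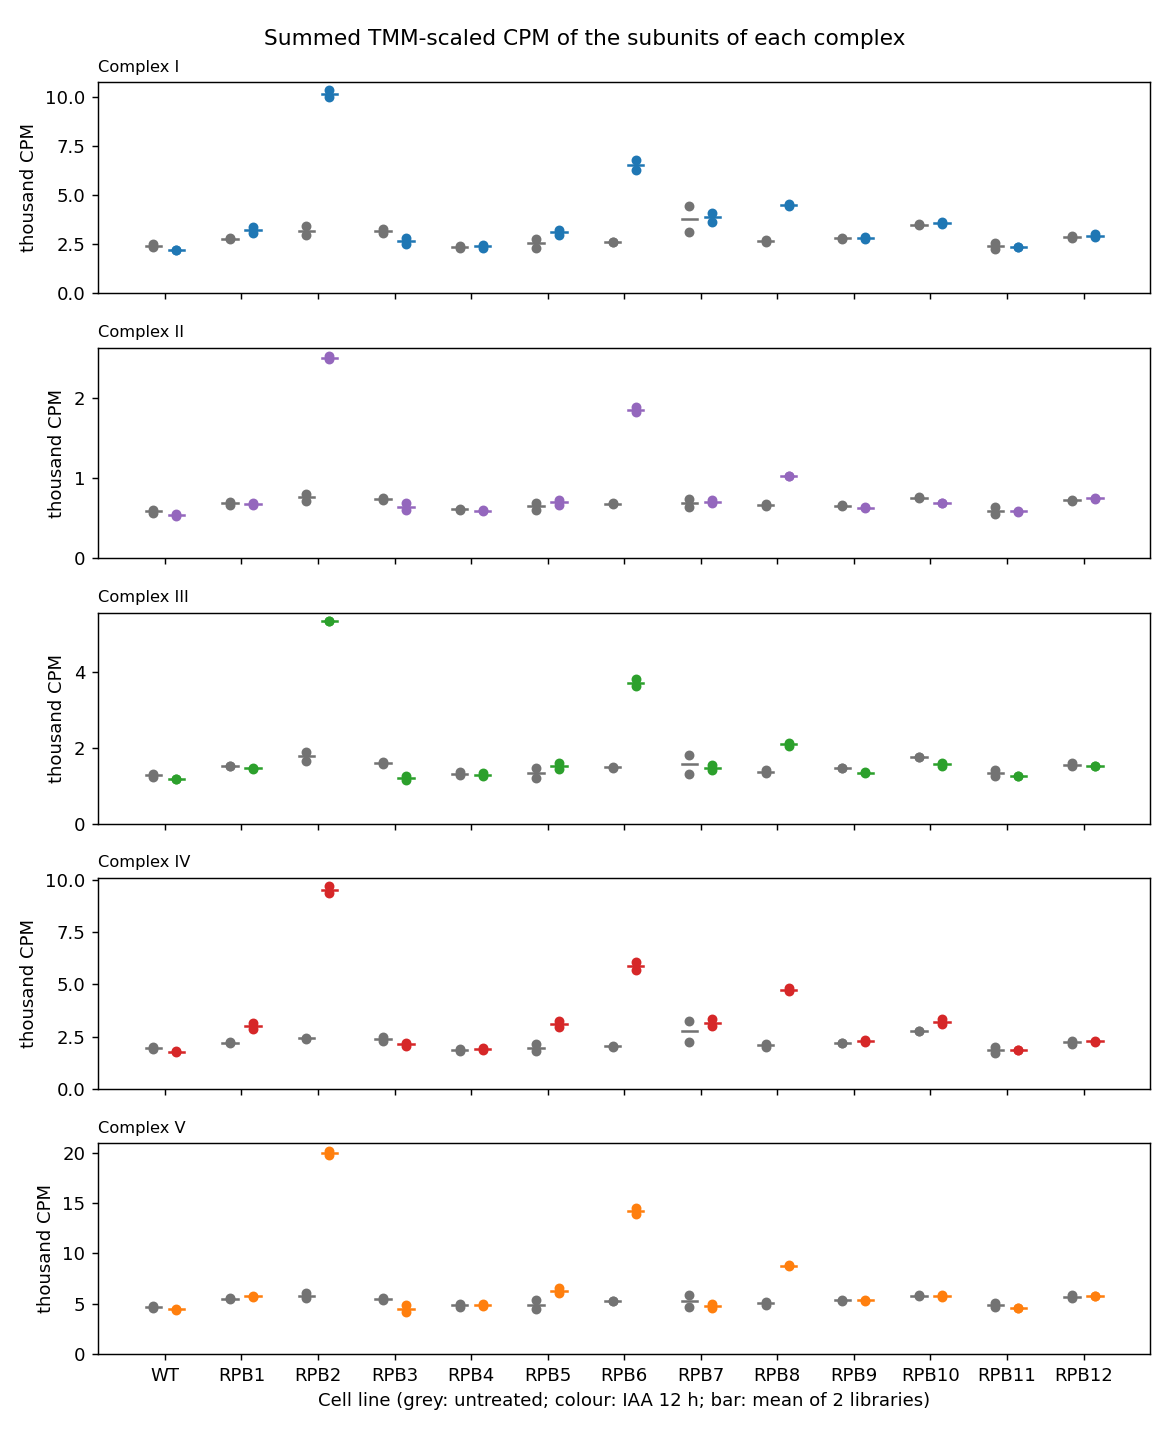
Summed TMM-scaled CPM (y axis in units of 1000, from 0) of the subunits of complexes I to V in each library of the 13 lines (x axis), with grey points for untreated, coloured points for IAA 12 h and bars for means of 2 libraries. RPB2, RPB6 and RPB8 stand above their untreated libraries in all 5 complexes on this scale, and RPB3 has the lower mean in all 5; against the summed mitochondrial mRNAs the subunits fall in RPB2, RPB6 and RPB8, and the RPB3 IAA libraries lie on either side of the untreated ones.

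The 12 members that are not subunits moved in both directions. Ndufaf4, a complex I assembly factor, fell from 44.5 and 55.0 to 3.33 and 6.06 CPM in RPB2 (log2 change -3.40 ± 0.28, adjusted p = 1.2e-14) and from 36.4 and 36.2 to 4.97 and 5.40 CPM in RPB6 (-2.80 ± 0.26, adjusted p = 5.1e-13 by edgeR). Ndufaf1 also fell, by 0.78 on the log2 scale in RPB2 and by 0.72 in RPB6. Ndufaf2, by contrast, rose in both (1.23 ± 0.19 and 1.33 ± 0.20). Of the 8 assembly factors 3 rose and 2 fell in RPB2, and 2 rose and 2 fell in RPB6. Cycs, the soluble cytochrome c, rose from 168 and 241 to 524 and 524 CPM in RPB2 and from 148 and 143 to 348 and 380 CPM in RPB6. Across the 81 tested subunits the change showed almost no relation to exonic length in these lines (Spearman rho 0.01 in RPB2 and -0.08 in RPB6). In the other lines at 12 h rho ran from -0.40 in RPB1 and -0.32 in RPB11 to -0.10 in WT. Over tested protein-coding genes it was -0.19 in RPB1, -0.04 in RPB11, -0.18 in RPB2 and -0.20 in RPB6. With the untreated level the subunits gave -0.40 in RPB1 and -0.34 in RPB11. Replicates also differed by length: the log2 ratio of the second to the first library had a rho of -0.49 in RPB1 after IAA. In untreated RPB11 it was -0.36, against -0.03 in untreated RPB1 and 0.09 in RPB11 after IAA. These values are a description over genes that share libraries.

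RPB8 raised the same complexes less evenly. Complex I had 33 of 36 subunits higher and 1 lower (median 0.91), complex II 3 of 4 higher, complex III 6 of 9, complex IV 13 of 16 and complex V 14 of 16. Atp5h, a peripheral stalk subunit, went from 133 and 153 to 375 and 369 CPM (log2 change 1.38 ± 0.12), and Uqcrb from 112 and 112 to 235 and 236 CPM. Within complex I the 29 non-core subunits all rose (median 1.02), whereas of the 7 core subunits 4 rose and 1 fell (median 0.37). The one that fell was Ndufs1, the largest iron-sulphur subunit, from 167 and 170 to 102 and 110 CPM (-0.68 ± 0.09, adjusted p = 1.8e-08 by edgeR). Its gene overlaps Eef1b2 and Ino80dos on the opposite strand, and the strand setting of the counting is unknown here. The same limit holds for other named members that overlap an expressed gene on the opposite strand. Among them are Cox4i1, Cox6c, Uqcrb, Uqcrc2, Ndufa11, Ndufs3, Ndufs6, Atp5a1, Atp5f1 and Ndufaf2. In RPB8 Ndufaf4 rose from 30.8 and 49.1 to 114 and 103 CPM (1.45 ± 0.15). Ndufaf5 fell from 30.1 and 26.5 to 9.44 and 8.46 CPM (-1.65 ± 0.21) and Ndufaf6 fell by 1.16. The RPB8 subunit with the highest change after the isoform Cox6b2 was Ndufb2, which held only 4.37 and 4.87 CPM untreated and overlaps Braf on the opposite strand.

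RPB1, the line of the catalytic subunit, and RPB5 showed a split within the chain. In RPB1 complex IV rose in 11 of 16 members and complex I in 17 of 36 with 3 lower, but complex II had 0 higher and 1 lower, and complex III 3 higher and 3 lower. Ndufv3, a flavoprotein-arm subunit, rose from 46.7 and 52.3 to 127 and 140 CPM (log2 change 1.43 ± 0.13), and Cox4i1 from 481 and 467 to 651 and 729 CPM. Ndufs7 fell from 77.3 and 70.5 to 30.8 and 37.0 CPM (-1.12 ± 0.13, adjusted p = 8.5e-10 by edgeR), and Uqcrfs1 from 121 and 121 to 76.1 and 72.4 CPM. Ndufs1 fell by 0.66, and Atp5a1 by only 0.24, from 1327 and 1321 to 1150 and 1097 CPM. Assembly factors fell together: 5 of 8 passed as lower and 0 as higher, with Ndufaf7 going from 36.4 and 42.8 to 12.6 and 13.7 CPM and Ndufaf6 from 22.6 and 21.6 to 7.75 and 7.29 CPM. Atp5s was the member outside the complexes that rose most in RPB1 (1.09 ± 0.21). Without the second IAA library of RPB1 the count of higher members dropped to 22. Total counts gave 60 higher and 10 lower in RPB1, and the shares of all genes called on that scale are not given here.

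In RPB5 complex V rose in 13 of 16 members and complex IV in 13 of 16, complex I in 17 of 36 with 3 lower. Uqcr11, a small complex III subunit, stood at 35.1 and 74.4 CPM untreated and 135 and 114 CPM after IAA (log2 change 1.16 ± 0.23), and Atp5k, subunit e in the membrane part of the ATP synthase, at 14.4 and 48.5 against 82.2 and 70.3 CPM. The untreated RPB5 libraries thus differed from each other by over 1 log2 unit in both genes. Sdhd rose by 0.33, while Sdhb fell by 0.28 and Uqcrc2, a complex III core protein, fell by 0.35. Ndufaf6 fell from 23.0 and 24.1 to 11.4 and 9.22 CPM. Leaving out the second IAA library of RPB5 left 6 members lower in place of 10.

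In RPB3 most called members fell: 13 of 36 in complex I with 1 higher, 1 of 4 in II, 6 of 9 in III, 6 of 16 in IV with 2 higher, and 5 of 16 in V (on the scale of mitochondrial mRNAs 42 higher and 0 lower, or 1 and 38 without the first IAA library). Ndufv2, an iron-sulphur subunit of complex I, went from 152 and 152 to 77.3 and 88.9 CPM (log2 change -0.87 ± 0.12, adjusted p = 4.8e-08 by edgeR). Sdhb went from 161 and 155 to 98.5 and 83.6 CPM, Uqcrq from 243 and 219 to 130 and 139 CPM, and Atp5g2, a gene for the membrane ring of the ATP synthase, from 154 and 143 to 61.5 and 104 CPM. None of these groups overlapped, though the IAA libraries of Atp5g2 differ widely. Cox7a2, the common isoform of that subunit, fell by 0.48, Cycs by 0.50 and Ndufaf6 by 1.04. The 3 subunits that rose were Ndufv3 (0.39 ± 0.13), Cox6b2 (1.10 ± 0.16) and Cox7a1 (0.67 ± 0.24), and the count of 4 higher members was 2 without the first IAA or the first untreated library. The shift was not peculiar to the chain: 68 of 83 cytosolic ribosomal protein genes and 45 of 77 mitochondrial ribosomal protein genes also fell in RPB3.

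Smaller and mixed responses were seen in RPB7, RPB9, RPB10 and RPB11. In RPB7 Ndufv3 rose from 70.0 and 104 to 165 and 158 CPM and Ndufs8, a core iron-sulphur subunit, fell from 47.8 and 69.3 to 29.3 and 32.6 CPM. Its untreated libraries differed from each other by a median of 0.54 on the log2 scale over subunits, the widest gap of any group. Accordingly the split of 18 higher and 21 lower became 3 and 38 without the first untreated library, 41 and 8 without the second, 7 and 19 without the first IAA library and 18 and 9 without the second. Uqcrc2 fell by 0.58, from 178 and 200 to 127 and 126 CPM, and Ndufaf5 by 1.23. In RPB9 Ndufv3 rose by 0.79 ± 0.13 and Ndufs7 fell by 0.49. In RPB10 Ndufb9 rose by 0.51 ± 0.14, Ndufaf4 by 0.57 ± 0.16 and Cyc1 fell by 0.36. RPB11 had Ndufs8 lower by 0.76, Uqcrc1 lower by 0.27 and Atp5k higher at 0.90 ± 0.31, the last from untreated libraries of 12.5 and 41.0 CPM. With each library left out in turn, the higher and lower counts ran over 2 to 4 and 6 to 8 in RPB9, 5 to 6 and 1 to 4 in RPB10, and 1 to 12 and 5 to 9 in RPB11, the count of 12 being without the second untreated library. Fitted on the 2 groups of a line alone, RPB9 had 22 higher and 18 lower, RPB10 32 and 14, RPB7 3 and 6, and RPB11 1 and 2. Total counts turned RPB11 to 11 higher and 5 lower and RPB10 to 14 and 3. The shares of all genes called in these other fits are not given here.

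No member passed in WT, RPB4 or RPB12 by edgeR, and DESeq2 also called 0. At an unadjusted p under 0.05 there were 9 members in WT, all lower, 2 in RPB4 and 1 in RPB12, all higher, out of 93 tested. Fitted on the 2 groups of a line alone, edgeR called 9 members lower in WT, and 1 higher and 1 lower in RPB12. In the reported fit of all lines, all genes tested were called at 1.65% in WT, 2.08% in RPB4 and 4.79% in RPB12. The shares for the fits of 2 groups alone are not given here. In WT the subunits summed to 11207 and 10584 CPM untreated and 10245 and 10069 CPM in IAA. These groups did not overlap, which is no test with 2 libraries each, and no single member passed.

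Over the 13 lines 92 of 93 members were called at least once at 12 h, against 97.4% of all genes tested, a share that says little about the members. They were called only higher in 46 cases (49.5%, against 30.1% of all genes), only lower in 5 (5.38% against 22.2%) and in both directions in 41 (44.1% against 45.1%). The 5 called only lower were Ndufaf5, Ndufaf6 and Ndufaf7, lower in 6, 8 and 6 lines, Ndufa4l2 in 3 and Cox7b2 in 1. The same 72 members rose in RPB2, RPB6 and RPB8 (77.4%, against 10.8% of all genes), 31 rose in RPB1, RPB2, RPB5, RPB6 and RPB8 (33.3% against 3.28%), and 32 rose in RPB2 and RPB6 but fell in RPB3 (34.4% against 8.9%). These lines were chosen with the results known, so the shares are a description. Besides the tissue isoforms, Ndufa11, a membrane-arm subunit, and Ndufv3 rose in the most lines, 8 each.

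Several subunits that hold an iron-sulphur cluster fell in lines where most called subunits of complexes I to III rose. Sdhb was lower in 7 lines and higher in RPB2 and RPB6 (below 0 there when scaled to mitochondrial mRNAs, and above 0 in RPB3 on that scale unless its first IAA library is left out), and Ndufs1 and Ndufs7 were each lower in 6 lines and higher in those 2. In RPB10 Sdhb went from 155 and 157 to 108 and 111 CPM, in RPB11 from 89.1 and 103 to 79.6 and 70.9 CPM, and in RPB1 from 118 and 119 to 88.7 and 97.8 CPM. No cluster is held by Uqcrc2, which showed the same 7 and 2 lines. Among the 7 cluster-holding subunits of complexes I to III (Ndufs1, Ndufs7, Ndufs8, Ndufv1, Ndufv2, Sdhb and Uqcrfs1), 5 fell and 1 rose in RPB1, with a median of -0.57, against 2 lower and 19 higher of the 42 other tested subunits of these complexes (median 0.23). In RPB5 the counts were 4 lower and 1 higher against 1 lower and 22 higher, and in RPB8 the medians were 0.04 and 0.91. RPB7 had 5 lower and 0 higher against 5 lower and 11 higher. In 4 further lines where some of the 7 fell, the other subunits did not rise as a group: RPB3 had 5 lower of the 7 against 15 lower and 1 higher, RPB9 4 lower against 2 and 2, RPB10 2 lower against 4 and 5, and RPB11 4 lower against 4 and 0. Ndufv1, which also holds a cluster, rose in 5 lines and fell in none. RPB2 and RPB6 raised all 7, with medians of 1.08 and 1.13 against 1.78 and 1.36. The list was chosen after the values were seen, so its difference carries no test.

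Complex IV holds subunits for which the genome keeps a common and a tissue-restricted copy, and the rarer copies ranged from the most to the fewest lines with a call. Cox4i2 passed in 0 lines and Cox7b2 in 1, where it was lower. Cox6b2, known as the testis form of the subunit that Cox6b1 encodes in most tissues, rose in 10 lines and fell in none, more lines than any other member; scaled to mitochondrial mRNAs its change turned below 0 in RPB2 and RPB6 and stayed above 0 in the other 8. In RPB8 it went from 23.8 and 15.5 to 172 and 195 CPM (log2 change 3.22 ± 0.18, adjusted p = 2.3e-20), in RPB1 from 25.4 and 25.4 to 85.4 and 119 CPM (2.01 ± 0.18, adjusted p = 1.1e-13) and in RPB10 from 65.0 and 64.5 to 202 and 190 CPM (1.60 ± 0.15, adjusted p = 2.9e-12 by edgeR). RPB3 raised it from 38.2 and 43.0 to 93.7 and 80.5 CPM, RPB5 from 17.2 and 30.6 to 92.0 and 83.2 CPM, and RPB11 from 16.8 and 28.1 to 50.4 and 52.5 CPM. Cox6b1 rose in 6 lines, with 147 and 167 against 605 and 637 CPM in RPB2 and 158 and 127 against 279 and 327 CPM in RPB8. The order of the pair turned between lines. In RPB2 and RPB6 Cox6b1 rose more (1.98 and 1.67 against 1.58 and 0.85), and in RPB8 and RPB10 Cox6b2 did. Cox7a1, the heart and muscle form paired with Cox7a2, rose in 9 lines (below 0 in RPB2, RPB6 and RPB8 when scaled to mitochondrial mRNAs), among them RPB7 (4.95 and 8 to 15.2 and 16.1 CPM) and RPB2 (7.05 and 11.8 to 23.8 and 22.4 CPM). Heart and skeletal muscle markers summed to 1.29 to 6.50 CPM in untreated libraries and 2.80 to 39.1 after IAA 12 h, where the highest sum was in RPB1. Only 4 of the 7 markers passed the low-count filter, and these 4 rose in RPB1. A marker can pass that filter through the group where it is high, so this count is no support. Of the 7 markers 6 had a median under 1 CPM in untreated libraries. Their part in the rise of Cox7a1 was not tested. Cox6a2, another muscle form, was at 0 in 11 of 26 untreated libraries. It fell in RPB7, from 7.76 and 14.3 to 2.93 and 2.81 CPM, and was called higher in RPB1, where the untreated libraries were both at 0 and the IAA libraries at 0.581 and 0.935 CPM, too few counts for a fold.

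**Figure D3:**
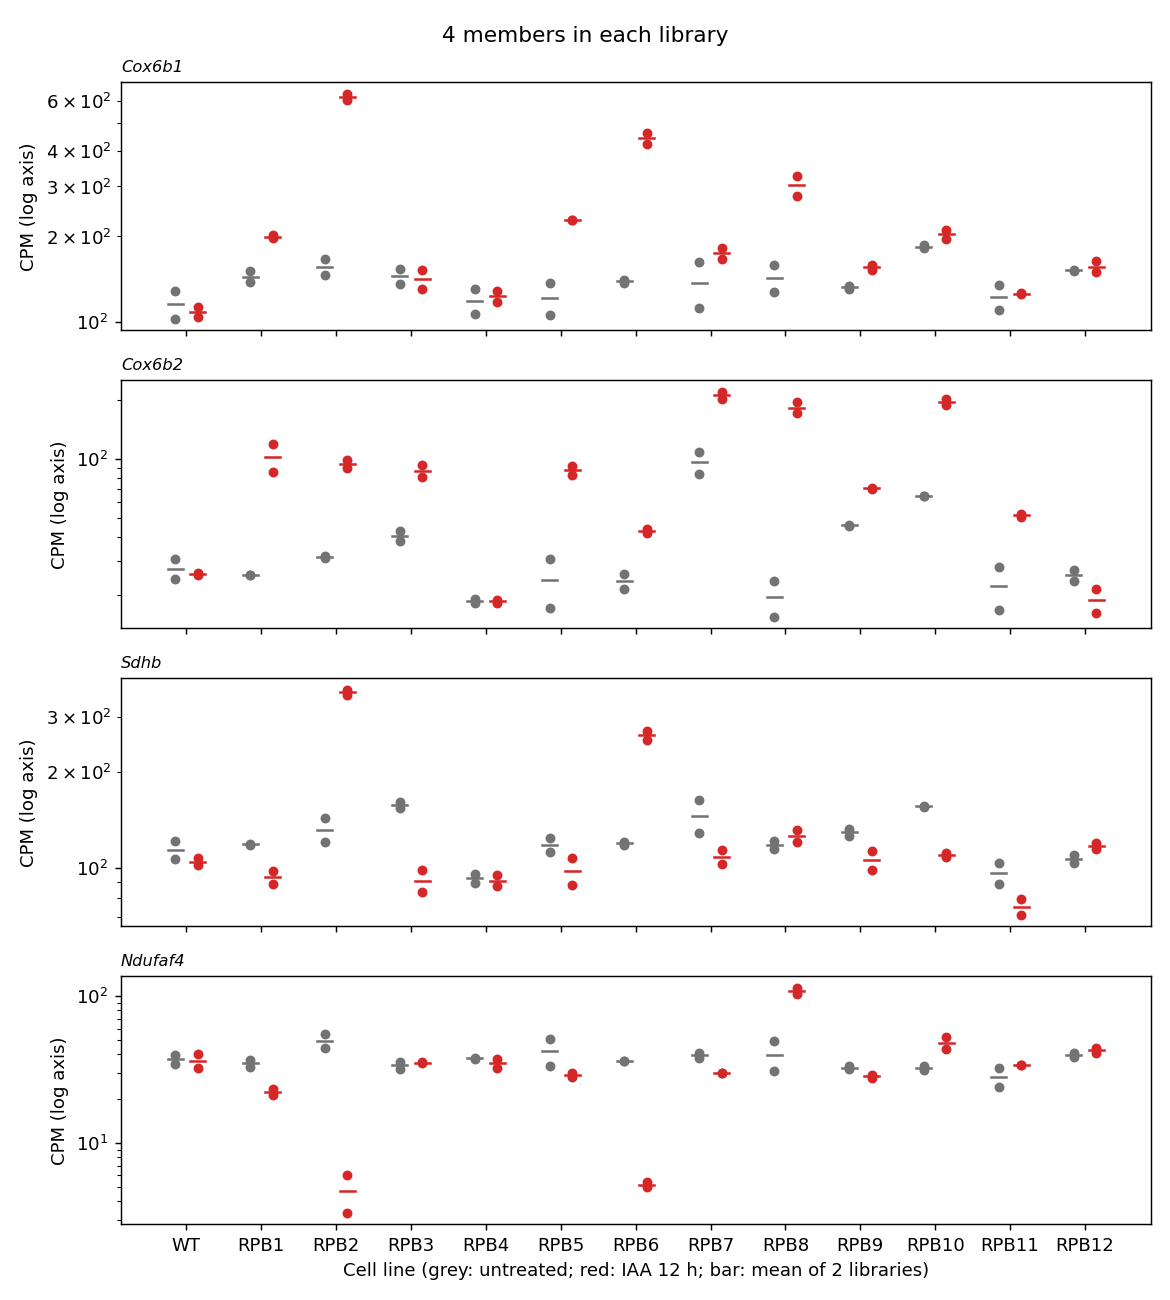
TMM-scaled CPM on log axes (y) of Cox6b1, Cox6b2, Sdhb and Ndufaf4 in each library of the 13 lines (x), with grey points for untreated, red points for IAA 12 h and bars for means of 2 libraries. On this scale Cox6b2 is higher in 10 lines, Sdhb is higher in RPB2 and RPB6 and lower in 7 lines, and Ndufaf4 drops to 3.33 to 6.06 CPM in RPB2 and RPB6 but reaches 114 and 103 CPM in RPB8; scaled to mitochondrial mRNAs Cox6b2 and Sdhb turn below 0 in RPB2 and RPB6 and Ndufaf4 in RPB8.

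Promoters of these contrasting members are shown from RefSeq (GRCm38.p6), where 75 of the 95 member symbols had an entry. Each line gives the 250 bases before the annotated start, 5′ to 3′ on the gene's strand, with motif matches in capitals. Cox6b1 and Cox6b2 are shown because they encode 2 forms of 1 subunit and moved by different amounts, Ndufaf4 because it fell where the subunits rose, and Atp5k because it rose most at 1 h. Their windows are chr7:30626115-30626364 (minus strand), chr7:4753095-4753344 (minus), chr4:24897833-24898082 (plus) and chr5:108434400-108434649 (minus).
Cox6b1: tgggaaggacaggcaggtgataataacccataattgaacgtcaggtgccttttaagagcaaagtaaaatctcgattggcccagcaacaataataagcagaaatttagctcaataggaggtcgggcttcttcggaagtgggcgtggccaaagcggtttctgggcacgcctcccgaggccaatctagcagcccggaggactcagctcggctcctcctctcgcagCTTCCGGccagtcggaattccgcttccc
Cox6b2: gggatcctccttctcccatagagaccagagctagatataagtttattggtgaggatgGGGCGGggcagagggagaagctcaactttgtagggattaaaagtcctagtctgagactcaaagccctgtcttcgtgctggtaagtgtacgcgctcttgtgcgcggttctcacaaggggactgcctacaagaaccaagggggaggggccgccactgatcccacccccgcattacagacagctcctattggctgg
Ndufaf4: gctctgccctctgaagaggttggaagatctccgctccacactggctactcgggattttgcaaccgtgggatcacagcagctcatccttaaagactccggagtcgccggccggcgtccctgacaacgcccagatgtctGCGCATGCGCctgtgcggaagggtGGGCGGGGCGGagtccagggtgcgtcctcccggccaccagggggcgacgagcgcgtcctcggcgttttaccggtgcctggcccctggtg
Atp5k: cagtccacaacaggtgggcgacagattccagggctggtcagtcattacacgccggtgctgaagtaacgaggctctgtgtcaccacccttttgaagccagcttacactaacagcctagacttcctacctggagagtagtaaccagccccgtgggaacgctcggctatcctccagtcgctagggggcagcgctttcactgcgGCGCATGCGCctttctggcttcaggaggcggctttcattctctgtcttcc
Searched on both strands in these windows were the palindromic NRF1 consensus, the ETS site CCGGAAG, the YY1 site AAGATGGC, the GC box GGGCGG and the TATA box TATAAA, none of which contains another. Capitals mark an ETS match in Cox6b1, a GC box in Cox6b2, an NRF1 match and 2 GC boxes in Ndufaf4, and an NRF1 match in Atp5k. An NRF1 match was found in 18.7% of the 75 member promoters, against 8.30% of the 12037 promoters of genes tested at 12 h and 4.23% of all 27025. ETS matches stood at 18.7% against 14.4% and 7.83%, YY1 at 1.33% against 2.32% and 1.83%, GC boxes at 38.7% against 60.6% and 35.4%, and TATA boxes at 8.0% against 8.07% and 14.3%. NRF1 matches were in 4 of 13 complex V promoters, 6 of 32 in complex I, 2 of 3 in complex II, 1 of 13 in complex IV and 0 of 5 in complex III. A match describes these letters only.

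At 1 h of IAA members rose in RPB1 and RPB6, and the difference between the 3 lines sampled was not tested. WT was not sampled at 0 h or 1 h, so the changes at 1 h could not be set against those of WT. An effect of IAA itself at 1 h was therefore not tested. In RPB1 46 of 92 tested members rose and 1 fell (of 15658 genes tested 11% rose and 13.9% fell, 24.9% together), with a member median of 0.33 against 0.01 for all genes. RPB6 had 10 higher and 0 lower (0.939% and 0.6%, median 0.28) and RPB3 had 0 and 0 (0.00639% and 0.351%). In RPB3 edgeR called none, DESeq2 called 0, and 5 members had an unadjusted p under 0.05, all higher. RPB1 raised 7 of 9 complex III members, 9 of 15 in complex IV, 17 of 36 in complex I, 8 of 16 in complex V and 2 of 4 in complex II. With scaling to mitochondrial mRNAs 18 members were higher in RPB1, and the share of all genes called on that scale is not given here. Atp5k went from 6.97 and 17.5 to 45.1 and 36.6 CPM in RPB1 (log2 change 1.76 ± 0.32, adjusted p = 9.4e-04) and from 18 and 8.85 to 35.9 and 37.6 CPM in RPB6 (1.44 ± 0.31, adjusted p = 0.032 by edgeR). Uqcr11 went from 18.9 and 22.6 to 58.3 and 65.8 CPM in RPB1, and in RPB6 from 16.2 and 20.1 to 44.1 and 31.0 CPM, where it did not pass (adjusted p = 0.058 by edgeR). Cox5b, Ndufs6, an accessory subunit of complex I, and Sdhd rose in RPB1 by 0.97 ± 0.23, 1.06 ± 0.27 and 0.37 ± 0.09. Ndufaf4 was the member that fell, from 48.8 and 42.7 to 33.2 and 35.9 CPM. In RPB6 Ndufa12, a complex I accessory subunit, rose by 0.80 ± 0.18, Cox6b1 by 0.52 ± 0.12 and Cycs by 0.49 ± 0.11.

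Short mRNAs tended to rise more at 1 h. Over the 80 tested subunits the log2 change had a Spearman rho of -0.56 with exonic length in RPB1, -0.53 in RPB6 and -0.30 in RPB3. Over 13072 protein-coding genes these were -0.34, -0.29 and -0.13. In the same order of lines the subunits gave -0.48, -0.42 and -0.08 with gene span, and -0.49, -0.48 and -0.53 with the level at 0 h. Length was not separated from these traits. All are a description over genes from the same libraries. Replicates of 1 group can show the same relation: the log2 ratio of the second to the first RPB3 library at 1 h had a rho of -0.59 with exonic length. The other groups of this set did not reach that value. In RPB1 the rho between replicates was -0.28 at 0 h and 0.05 at 1 h, in RPB6 0.00047 and 0.32, and in RPB3 at 0 h -0.19. Atp5k differed by 1.33 on the log2 scale between the RPB1 libraries at 0 h and by 1.03 between those of RPB6. The part of library differences by length in the rise at 1 h was not tested. Leaving out 1 library left 18 to 36 higher members in RPB1, lowest without the first 0 h library and next, at 24 and 29, without the second and the first 1 h library. Shares of all genes called in the other fits that follow are not given here. RPB6, at 10 with all libraries, had 15 by DESeq2 and 26 when its 2 groups alone entered the model. It had 29 with a replicate block, 32 with no low-count filter and 0 with scaling to mitochondrial mRNAs. It had 1 without the first 0 h library, 0 without the second, 0 without the first 1 h library and 13 without the second. RPB3 had 9 higher without its first 1 h library.

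**Figure D4:**
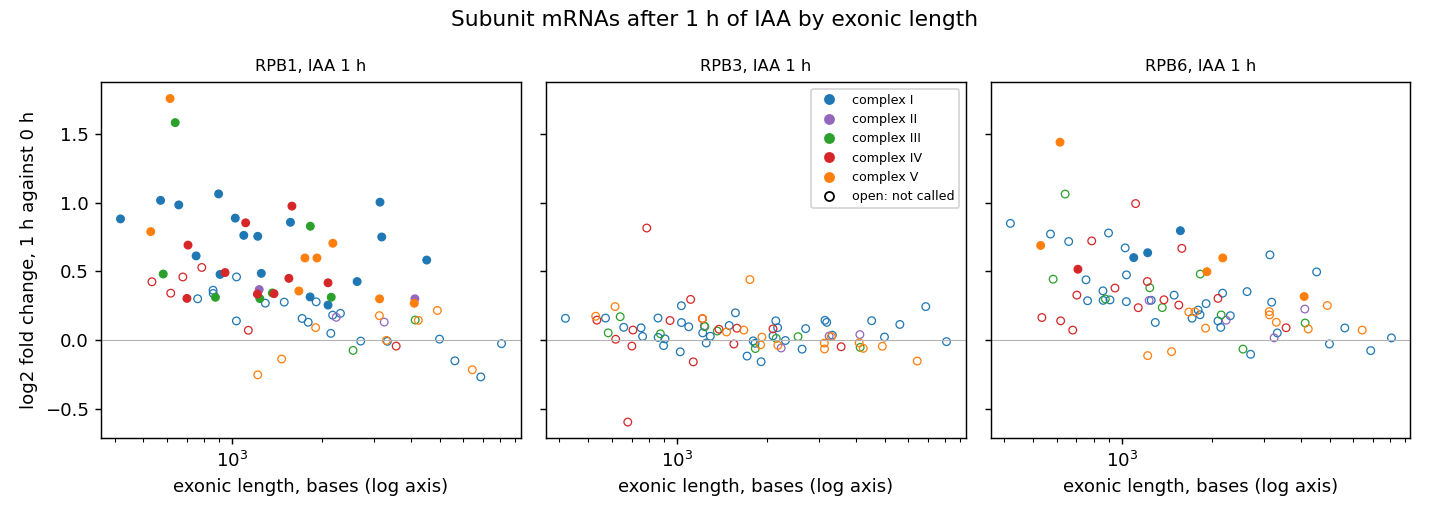
Log2 fold change at 1 h of IAA against 0 h (y axis) by exonic length in bases (x axis, log scale) for each tested subunit in RPB1, RPB3 and RPB6, coloured by complex, with filled points for called members. Points slope down from short to long mRNAs in RPB1 (rho -0.56) and RPB6 (rho -0.53) and lie closer to 0 in RPB3.

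Responses were next compared between lines. Against the response of WT, which all 12 differences share, 84 members differed in RPB2 (82 higher and 2 lower, with 24.3% and 31.2% of all genes), 82 in RPB6 (80 and 2, with 23.9% and 30.2%), 77 in RPB8 (73 and 4, with 23.9% and 25.6%), 54 in RPB5 (49 and 5, with 20% and 22.3%) and 44 in RPB1 (33 and 11, with 23.9% and 25.1%). RPB7 differed in 21 members (11.4% and 13.8% of all genes higher and lower), RPB3 in 20 (12.9% and 15.3%), RPB10 and RPB11 in 7 each (10.9% and 14.7%, 4.68% and 6.61%) and RPB9 in 5 (8.07% and 9.91%). RPB4 and RPB12 had 0 by edgeR and by DESeq2, with 6 and 4 members at an unadjusted p under 0.05.

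RPB2 and RPB6 each departed from RPB1, which they share as the reference. RPB2 minus RPB1 was higher in 83 members and lower in 3 (27.5% and 35.1% of all genes), with a median difference of 1.49, and RPB6 minus RPB1 was higher in 83 and lower in 5 (28.4% and 35%). The 86 and 88 members called dropped to 55 and 49 with total counts and to 7 and 8 with scaling to mitochondrial mRNAs. The shares of all genes called on these 2 scales are not given here. Ndufs7, which fell in RPB1 and rose in RPB2 (-0.11 with total counts), differed by 1.87 ± 0.18 (adjusted p = 1.8e-12), and Ndufs1 by 1.79 ± 0.12 between RPB6 and RPB1 (adjusted p = 6.9e-17 by edgeR). Ndufaf4 differed in the other direction, by -2.75 ± 0.36 for RPB2 and -2.15 ± 0.33 for RPB6. The response of Cox6b2 was lower in RPB6 than in RPB1 (-1.16 ± 0.27), and for RPB2 the difference of -0.43 ± 0.26 did not pass (adjusted p = 0.14 by edgeR).

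RPB3 and RPB11, which form a heterodimer in the Pol II assembly platform, differed in 9 members, all lower in RPB3 (5.5% and 6.84% of all genes were higher and lower). Examples are Ndufa12 at -0.92 ± 0.24, Atp5g2 at -0.70 ± 0.18 and Cycs at -0.59 ± 0.16. The count was 5 by DESeq2, 4 with total counts, 3 with these groups alone, 0 with mitochondrial mRNAs and 18 with no low-count filter. RPB4 and RPB7, which form the stalk of Pol II, differed in 18 members, 10 higher and 8 lower in RPB4 (13.7% and 10.8% of all genes). Ndufaf5 differed by 1.24 ± 0.25, Ndufs8 by 0.91 ± 0.21 and Cox6b2 by -1.16 ± 0.27. The count was 6 with mitochondrial mRNAs and 5 with these groups alone, and the untreated libraries of RPB7 have the wide gap given above. For both pairs the shares of all genes called in the other fits are not given here.

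Before IAA the lines already differed from WT in these genes. RPB10 had 67 members higher and 0 lower (16% and 15.8% of all genes), RPB7 56 and 8 (26.9% and 26.8%), RPB2 51 and 4 (20.2% and 20.6%), RPB3 47 and 1 (15.3% and 14.5%) and RPB12 37 and 5 (19.6% and 20.6%). RPB9 had 24 and 3 (8.57% and 7.15%), RPB1 21 and 4 (10.8% and 10.3%), RPB6 15 and 5 (12.5% and 12%), RPB8 6 and 2 (9.71% and 10.3%) and RPB5 5 and 2 (8.68% and 9.18%). RPB4 had 3 higher and 13 lower (16% and 17.1%) and RPB11 2 and 8 (11.8% and 11%). The median over members was 0.46 in RPB10 and 0.40 in RPB7, and the subunits summed to 14594 and 14579 CPM in untreated RPB10 against 11207 and 10584 CPM in WT. All 12 comparisons share the WT libraries.

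Genes around the chain gave a frame for the subunits. In RPB2 all 12 tested mitochondrial mRNAs rose (median 2.46), as did 16 of 17 genes of pyruvate dehydrogenase and the citric acid cycle with 1 lower (1.10), 81 of 83 cytosolic ribosomal protein genes with 1 lower (1.74) and 34 of 39 proteasome genes with 2 lower (1.38). Mitochondrial ribosomal protein genes were mixed, 40 higher and 22 lower of 77 (0.33), and so were 43 assembly factors named other than Ndufaf, 18 higher and 15 lower (0.38). Regulators of mitochondrial gene expression, among them Nrf1, Gabpa, Yy1 and Tfam, went the other way with 0 higher and 11 lower of 12 (-1.88). RPB6 gave the same order: mitochondrial mRNAs 12 of 12 higher (2.27), cytosolic ribosomal proteins 81 of 83 (1.34), the cycle 16 of 17 with 1 lower (1.09) and regulators 0 higher and 9 lower (-1.50). In RPB1 the regulators had 2 higher and 8 lower, the cycle 1 higher and 10 lower, mitochondrial ribosomal proteins 4 higher and 47 lower (-0.44), and mitochondrial mRNAs 6 of 12 higher (0.64). The lists were drawn up with results known, and no list was tested as a set.

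Within a library the ratio of nuclear subunit counts to mitochondrial mRNA counts needs no scaling. On the log2 scale it fell in RPB2 from 0.08 and 0.04 to -0.44 and -0.33, in RPB6 from 0.17 and 0.26 to -0.38 and -0.29, and in RPB8 from -0.13 and -0.42 to -0.91 and -0.98. The mean change was -0.44 in RPB2, -0.55 in RPB6, -0.67 in RPB8, -0.42 in RPB1, -0.40 in RPB7, -0.23 in RPB10 and -0.15 in RPB9, and in none of these lines did untreated and IAA libraries overlap. In RPB4 (0.14), RPB5 (-0.15), RPB11 (0.06) and RPB12 (0.06) the libraries overlapped. WT moved by -0.19, without overlap, from -0.10 and -0.23 to -0.32 and -0.39. At 1 h the ratio went the opposite way: RPB1 rose by 0.36 and RPB6 by 0.34, without overlap, while RPB3 libraries overlapped (mean change 0.06). In RPB3 at 12 h the IAA libraries lay at 1.35 and -0.48, on either side of the untreated ones. Poly(A) library preparation is stated for the 12 h samples, and its yield of mitochondrial mRNA can vary between libraries; the ratio has no test here.

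**Figure D5:**
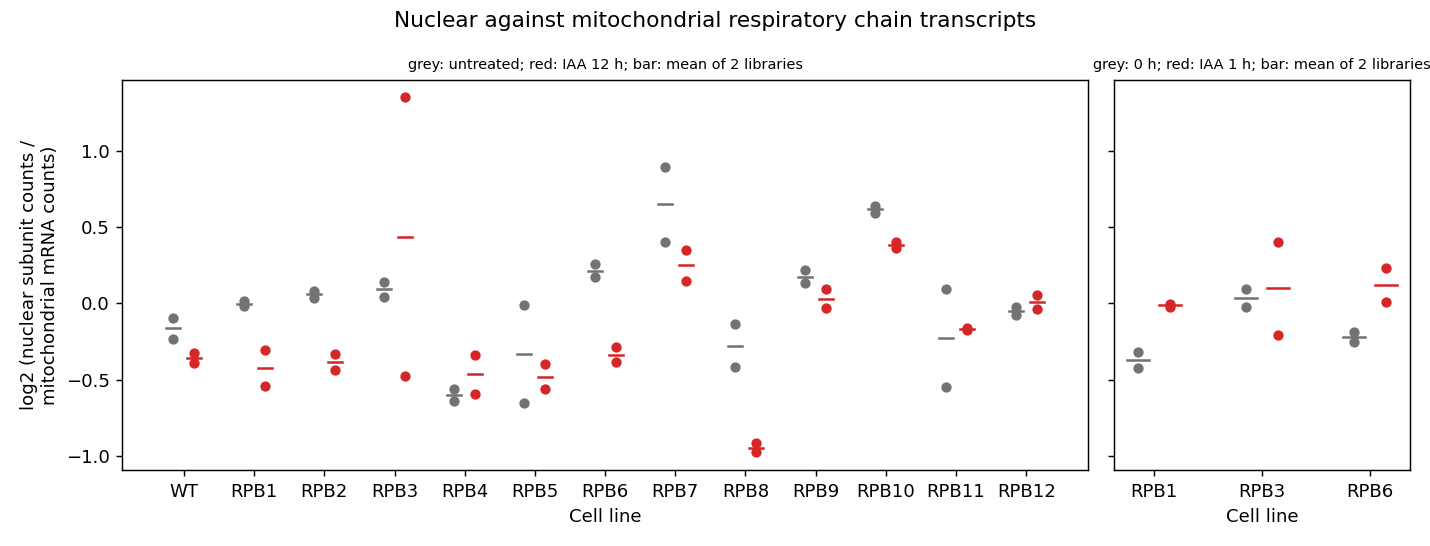
Log2 ratio of summed nuclear subunit counts to summed mitochondrial mRNA counts (y axis) per library and line (x axis), 12 h set on the left and 1 h set on the right, with grey for untreated or 0 h, red for IAA and bars for means of 2 libraries. IAA libraries lie below untreated ones in WT, RPB1, RPB2, RPB6, RPB7, RPB8, RPB9 and RPB10 at 12 h and above the 0 h libraries in RPB1 and RPB6 at 1 h, and 1 RPB3 library stands apart at 1.35.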

How the data were processed

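The authors deposited a table of raw counts per gene, 1 column per library. Per the submitters' processing notes, the tools used were cutadapt 1.18, STAR, Bowtie2, SAMtools, featureCounts, deepTools and DESeq2 with builds mm10 and dm6; which of them made this table is unknown, as are its annotation and strand setting (not given in the sources used here). Fly spike-in cells (10%) were added per the labels, and spike-in counts were not used here. Another 4 columns of counts matched no sample and were not used. Gene IDs were named from GENCODE M21 (55154 of 55335 matched).

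Counts were tested with edgeR 4.0.16 (R 4.3.3) by quasi-likelihood, with TMM scaling and filterByExpr, in 1 fit of 52 libraries (17928 genes, 26 residual degrees of freedom) and 1 of the 12 libraries at 0 h and 1 h (15658 genes, 6 degrees of freedom). Each group has 2 libraries, so groups can fail to overlap without any change, and lack of overlap is no test. In a member named for its change it adds no support. P-values were adjusted by Benjamini-Hochberg over all genes of a comparison, with a threshold of 0.05. CPM are TMM-scaled, log2 changes carry their SE, and levels per kilobase use merged exon length. The scripts were tested on simulated data. Alternatives were DESeq2 1.42.0, other scalings, no filter, a fit of the compared groups alone, a replicate block and leaving out each library. The replicate numbers are not said to pair libraries, so no block was used in the reported fits. Correlations of same-numbered libraries ran from -0.31 to 0.18 and do not settle the pairing. No replicate pair agreed within sampling noise (lowest chi-square per gene 1.11).

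Named genes are the called members with the highest and lowest change in each complex and comparison (mean of 5 CPM or more), a fixed set of subunits, paralog pairs, and members called in the most lines; the iron-sulphur list and some further members were chosen after their values were seen. A member that the rule named is not reported here. The members and all lists were chosen with earlier results of these data known.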

Additional observations from a re-analysis of the deposited data

Results flagged for a closer look

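Responses to IAA at 12 h were compared between lines by an interaction term in edgeR, and each difference below passed at an adjusted p under 0.05 over all genes. Against WT, members whose response differed, out of 93 and with the share of all genes in brackets, numbered 84 in RPB2 (55.5%), 82 in RPB6 (54.1%), 77 in RPB8 (49.5%) and 54 in RPB5 (42.3%). They numbered 44 in RPB1 (49.1%), 21 in RPB7 (25.2%), 20 in RPB3 (28.2%), 5 in RPB9 (18%), 7 in RPB10 (25.6%) and 7 in RPB11 (11.3%), shares near or below those of all genes. Between degron lines they numbered 86 for RPB2 minus RPB1 (62.6%), 88 for RPB6 minus RPB1 (63.4%), 9 for RPB3 minus RPB11 (12.3%) and 18 for RPB4 minus RPB7 (24.5%). For RPB2 minus RPB1 the log2 difference was -2.75 for Ndufaf4, 2.08 for Ndufb2 and 1.87 for Ndufs7. For RPB6 minus RPB1 it was -2.15 for Ndufaf4, -1.16 for Cox6b2 and 1.79 for Ndufs1. For RPB3 minus RPB11 it was -0.92 for Ndufa12, -0.70 for Atp5g2 and -0.59 for Cycs. For RPB4 minus RPB7 it was -1.16 for Cox6b2, 1.24 for Ndufaf5 and 0.91 for Ndufs8.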

How the results depend on the processing

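Of 152 changes of single members examined, 51 turned sign with scaling to mitochondrial mRNAs and 3 with total counts. Sign turns were looked for only in changes that were called in the reported fit. No called change turned sign with size factors, no low-count filter or 1 library left out (all 152 with a value). The same held for DESeq2 (151 with a value), the groups compared alone (150) and a replicate block (139). With the sign kept, calls ended for 53 changes with mitochondrial mRNAs, 16 with the groups compared alone and 15 with DESeq2. They ended for 13 with total counts, 3 with size factors, 3 with no filter and 2 with a replicate block. Calls also ended in some fits with 1 library left out. Their number is not given here, because such a fit leaves 1 library in a group. Changes that turned sign are not among the ended calls, and whether their calls lasted was not counted. Counts of members called that moved by over 1.5 times are given here, each with its reported value, and the cause was not tested. They come without the share of all genes called in the same fit, so they do not set the members apart from other genes. Whether depth or replicate spread limits a missing call was not tested either.

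With scaling to mitochondrial mRNAs, members higher at 12 h numbered 3 (reported 40) in RPB1, 0 (reported 83) in RPB2, 42 (reported 4) in RPB3, 1 (reported 50) in RPB5, 0 (reported 82) in RPB6, 1 (reported 18) in RPB7, 1 (reported 74) in RPB8, 0 (reported 4) in RPB9, 1 (reported 9) in RPB10 and 1 (reported 3) in RPB11. Members lower at 12 h numbered 24 (reported 13) in RPB1, 32 (reported 2) in RPB2, 0 (reported 37) in RPB3, 20 (reported 10) in RPB5, 46 (reported 2) in RPB6, 48 (reported 4) in RPB8, 0 (reported 11) in RPB9, 1 (reported 7) in RPB10 and 0 (reported 11) in RPB11. Members higher at 1 h numbered 18 (reported 46) in RPB1 and 0 (reported 10) in RPB6. Members lower at 1 h numbered 0 (reported 1) in RPB1. Members differing from the WT response numbered 10 (reported 44) in RPB1, 13 (reported 84) in RPB2, 31 (reported 20) in RPB3, 6 (reported 54) in RPB5, 12 (reported 82) in RPB6, 2 (reported 21) in RPB7, 19 (reported 77) in RPB8, 0 (reported 5) in RPB9, 1 (reported 7) in RPB10 and 0 (reported 7) in RPB11. Members differing between 2 responses numbered 7 (reported 86) in RPB2 minus RPB1, 8 (reported 88) in RPB6 minus RPB1, 0 (reported 9) in RPB3 minus RPB11 and 6 (reported 18) in RPB4 minus RPB7. Members differing from WT untreated numbered 3 (reported 25) in RPB1, 10 (reported 55) in RPB2, 4 (reported 48) in RPB3, 1 (reported 7) in RPB5, 5 (reported 20) in RPB6, 0 (reported 8) in RPB8, 4 (reported 27) in RPB9, 1 (reported 10) in RPB11 and 5 (reported 42) in RPB12. When only the groups compared entered the model, members higher at 12 h numbered 3 (reported 18) in RPB7, 22 (reported 4) in RPB9, 32 (reported 9) in RPB10, 1 (reported 3) in RPB11 and 1 (reported 0) in RPB12. Those lower at 12 h numbered 9 (reported 0) in WT, 6 (reported 10) in RPB5, 6 (reported 21) in RPB7, 18 (reported 11) in RPB9, 14 (reported 7) in RPB10, 2 (reported 11) in RPB11 and 1 (reported 0) in RPB12. Those higher at 1 h numbered 26 (reported 10) in RPB6. Those lower at 1 h numbered 4 (reported 1) in RPB1. Those differing from the WT response numbered 67 (reported 44) in RPB1, 1 (reported 0) in RPB4, 9 (reported 21) in RPB7, 34 (reported 5) in RPB9, 30 (reported 7) in RPB10, 4 (reported 7) in RPB11 and 2 (reported 0) in RPB12. Those differing between 2 responses numbered 3 (reported 9) in RPB3 minus RPB11 and 5 (reported 18) in RPB4 minus RPB7. Those differing from WT untreated numbered 51 (reported 25) in RPB1, 30 (reported 16) in RPB4, 0 (reported 7) in RPB5, 45 (reported 20) in RPB6, 39 (reported 64) in RPB7, 14 (reported 8) in RPB8, 46 (reported 27) in RPB9 and 4 (reported 10) in RPB11. With mitochondrial mRNAs and without the first IAA library of RPB3, chosen after seeing the data, members higher at 12 h numbered 1 (reported 4) in RPB3. With total counts as the scale, members higher at 12 h numbered 8 (reported 4) in RPB3, 11 (reported 4) in RPB9, 14 (reported 9) in RPB10 and 11 (reported 3) in RPB11. Those lower at 12 h numbered 7 (reported 2) in RPB2, 7 (reported 2) in RPB6, 7 (reported 4) in RPB8, 3 (reported 7) in RPB10 and 5 (reported 11) in RPB11. Those lower at 1 h numbered 2 (reported 1) in RPB1. Those differing from the WT response numbered 15 (reported 7) in RPB10. Those differing between 2 responses numbered 55 (reported 86) in RPB2 minus RPB1, 49 (reported 88) in RPB6 minus RPB1 and 4 (reported 9) in RPB3 minus RPB11. With no low-count filter, members higher at 12 h numbered 7 (reported 3) in RPB11. Members higher at 1 h numbered 1 (reported 0) in RPB3 and 32 (reported 10) in RPB6. Members differing from the WT response numbered 1 (reported 0) in RPB4 and 12 (reported 7) in RPB11. Members differing between 2 responses numbered 18 (reported 9) in RPB3 minus RPB11. Members differing from WT untreated numbered 13 (reported 7) in RPB5 and 14 (reported 8) in RPB8. With DESeq2, members higher at 12 h numbered 1 (reported 3) in RPB11. Those lower at 12 h numbered 7 (reported 11) in RPB9. Those differing from the WT response numbered 3 (reported 5) in RPB9. Those differing between 2 responses numbered 5 (reported 9) in RPB3 minus RPB11. Those differing from WT untreated numbered 5 (reported 8) in RPB8. With DESeq2-style size factors in edgeR, members differing between 2 responses numbered 5 (reported 9) in RPB3 minus RPB11. The log2 change of summed CPM of subunits at 12 h became 0.34 in RPB1 (reported 0.15), 0.91 in RPB2 (reported 1.77), -0.0776 in RPB3 (reported -0.26), 0.79 in RPB6 (reported 1.41), 0.67 in RPB8 (reported 0.84), 0.0856 in RPB9 (reported -0.000508), 0.12 in RPB10 (reported 0.0237) and 0.0306 in RPB11 (reported -0.0622) on CPM of all counts.

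When 1 library was left out at a time, members higher at 12 h numbered 22 to 38 (reported 40) in RPB1, 2 to 5 (reported 4) in RPB3, 3 to 41 (reported 18) in RPB7, 2 to 4 (reported 4) in RPB9, 5 to 6 (reported 9) in RPB10 and 1 to 12 (reported 3) in RPB11. Those lower at 12 h numbered 6 to 13 (reported 10) in RPB5, 8 to 38 (reported 21) in RPB7, 6 to 8 (reported 11) in RPB9, 1 to 4 (reported 7) in RPB10 and 5 to 9 (reported 11) in RPB11. Those higher at 1 h numbered 18 to 36 (reported 46) in RPB1, 0 to 9 (reported 0) in RPB3 and 0 to 13 (reported 10) in RPB6. Those lower at 1 h numbered 0 to 1 (reported 1) in RPB1 and 0 to 1 (reported 0) in RPB3. Those differing from the WT response numbered 29 to 43 (reported 44) in RPB1, 15 to 47 (reported 21) in RPB7, 1 to 4 (reported 5) in RPB9, 3 to 8 (reported 7) in RPB10 and 2 to 8 (reported 7) in RPB11. Those differing between 2 responses numbered 5 to 15 (reported 9) in RPB3 minus RPB11 and 11 to 34 (reported 18) in RPB4 minus RPB7. Those differing from WT untreated numbered 11 to 21 (reported 25) in RPB1, 26 to 43 (reported 48) in RPB3, 7 to 11 (reported 16) in RPB4, 2 to 14 (reported 7) in RPB5, 11 to 21 (reported 20) in RPB6, 3 to 7 (reported 8) in RPB8, 7 to 20 (reported 27) in RPB9, 5 to 25 (reported 10) in RPB11 and 24 to 40 (reported 42) in RPB12.

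In RPB2 IAA 12 h the log2 change turned sign with scaling to mitochondrial mRNAs to -0.0788 for Ndufa10, -1.46 for Ndufs7, -1.33 for Ndufs3, -0.28 for Sdhc, -0.77 for Sdhb, -0.46 for Sdha, -0.29 for Uqcrb, -1.63 for Uqcrfs1, -0.64 for Cyc1, -0.14 for Cox6c, -0.20 for Cox4i1, -0.92 for Cox7a1, -0.22 for Cox6b1, -0.63 for Cox6b2, -0.13 for Atp5e, -0.74 for Atp5f1, -0.28 for Atp5b, -0.84 for Cycs and -0.95 for Ndufaf2. In RPB6 IAA 12 h the log2 change turned sign with scaling to mitochondrial mRNAs to -0.13 for Ndufa10, -1.28 for Ndufs3, -0.28 for Sdhd, -0.83 for Sdhb, -0.35 for Uqcrb, -1.38 for Uqcrfs1, -0.39 for Cox4i1, -0.29 for Cox6b1, -1.12 for Cox6b2, -1.07 for Cox7a1, -0.27 for Atp5e, -0.78 for Atp5f1, -0.52 for Atp5b, -0.64 for Cycs and -0.64 for Ndufaf2. In RPB8 IAA 12 h the log2 change turned sign with scaling to mitochondrial mRNAs to -0.57 for Sdhd, -0.44 for Uqcrb, -0.44 for Cox6b1, -0.20 for Cox4i1, -0.31 for Cox7a1, -0.12 for Atp5h, -0.53 for Cycs and -0.0397 for Ndufaf4. In RPB1 IAA 12 h the log2 change turned sign with scaling to mitochondrial mRNAs to -0.00305 for Uqcr11 and -0.0215 for Cox4i1. In RPB5 IAA 12 h the log2 change turned sign with scaling to mitochondrial mRNAs to -0.22 for Sdhd. In RPB3 IAA 12 h the log2 change turned sign with scaling to mitochondrial mRNAs to 0.0784 for Sdhb, 0.0174 for Uqcrq, 0.27 for Cox7a2 and 0.29 for Cycs. In RPB7 IAA 12 h the log2 change turned sign with scaling to mitochondrial mRNAs to -0.0378 for Sdhc. In RPB3 minus RPB11 the log2 change turned sign with scaling to mitochondrial mRNAs to 0.10 for Cycs. In RPB2 IAA 12 h the log2 change turned sign with total counts as the scale to -0.11 for Ndufs7 and -0.28 for Uqcrfs1. In RPB6 IAA 12 h the log2 change turned sign with total counts as the scale to -0.0428 for Uqcrfs1.

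Deviations of same-numbered libraries had correlations from -0.31 to 0.18. These values do not settle whether the numbers pair the samples. A replicate block moved members higher in RPB6 at 1 h from 10 to 29 and changed no other count of members by over 1.5 times. In RPB4, RPB5, RPB7 and RPB8 the correlations were under -0.1, and a replicate block with crossed numbers, chosen after seeing the data, gave 0, 56, 23 and 76 members higher and 0, 11, 24 and 4 lower.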
